A study of Mus musculus with 2 samples.

Results

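The secondary and tertiary granule genes encode the proteins that neutrophil precursors pack into their later granules. The group consisted of 10 named genes (Chil3, Ltf, Camp, Ngp, Lcn2, Cd177, Pglyrp1, Lrg1, Mmp8 and Mmp9). Its members were found as every array probe whose RefSeq accession maps to one of these symbols. There were 12 such probes, and 9 of the 10 genes were well above background on both arrays, out of 13412 such genes among the 22911 named on the array. The cells were LKS+ cells, which lack lineage markers and carry Kit and Sca-1, sorted from the BM of wild-type mice as a fraction rich in stem and progenitor cells (HSPCs). After propagation with SCF, IL-6 and IL-3, the cells received EVs prepared from the spleen (SP) at 150 μg/ml for 24 h. These came from CML mice (CML EVs) or from normal mice (control EVs), and RNA of each culture was hybridized to 1 one-colour Agilent array. According to the methods, CML mice were recipients of LKS+ cells carrying a BCR-ABL retrovirus together with normal BM cells after sublethal irradiation, and their EVs were harvested after a further irradiation, which the sample labels do not mention. For the control donors no irradiation is described, and leukemia and irradiation therefore cannot be told apart here. The sources used here do not give the strain of the cells on these arrays, nor the number of mice behind each EV preparation or culture.

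Neutrophils make their granules in sequence. Promyelocytes fill the primary (azurophil) granules with proteases and myeloperoxidase, myelocytes and metamyelocytes the secondary (specific) granules with lactoferrin, cathelicidin and lipocalin, and band cells the tertiary (gelatinase) granules. The genes of the secondary granules are known to depend on the transcription factor C/EBPε, with Gfi1 acting beside it. The mouse BM is the main site where these genes are transcribed, and circulating neutrophils carry the proteins with little of the secondary granule mRNA.

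Each condition was measured on 1 array, so that no difference has a replicate check. All values describe a single pair of cultures, without p-values or standard errors across samples. Signals are scanner intensities after scaling by 1 factor per array, which set the mean of the spots to 2500 once the upper and lower 2% were removed, and a ratio is CML EV over control EV. Both arrays lay on the same slide and in the same scan. Of 59305 spots, 53.3% were well above background with CML EVs and 54.4% with control EVs, and no spot was saturated. On 272 probes printed 10 times per array, the log2 ratio of repeated spots had a median SD of 0.05 and a highest SD of 0.16, which covers the array and not the cultures. Of these probes, 262 had a mean log2 signal of at least 14, above that of most granule genes. The cells carried the transcripts of the sort markers, with signals of 1529 with CML EVs and 1646 with control EVs for Kit, and of 1985 with CML EVs and 1548 with control EVs for Ly6a, which encodes Sca-1. Transcripts of surface proteins that the sort had excluded were also well above background after the culture, with signals of 4197 with CML EVs and 4835 with control EVs for Itgam (CD11b) and of 484.4 with CML EVs and 544.0 with control EVs for Cd4, while Cd8a was not well above background on either array.

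Of the 9 measured granule genes, 8 were at least 1.5-fold higher with CML EVs and none was 1.5-fold lower. Their ratios lay within a narrow band, 1.69-fold to 2.03-fold, while the remaining gene, Mmp8, was 1.07-fold lower. In RNA of a whole culture, more cells of a type and more RNA per cell cannot be told apart. The median log2 ratio was 0.88 (1.84-fold) over the 9 genes, against 0.0065 over all 13412 genes. Above 0 lay 52.0% of all measured genes and 58.9% of the brighter ones, those with a mean signal above the median. For comparison, 1.52% of all measured genes (204) were at least 1.5-fold higher and 1.18% (158) at least 1.5-fold lower. Among the brighter 6706 genes, whose mean signal exceeded the median of 702.4 and where ratios scatter less, 0.582% (39) were 1.5-fold higher and 0.134% (9) were 1.5-fold lower, and 7 of the 39 higher genes were granule genes. Only 122 of the 13412 genes, and 21 of the 6706 brighter ones, had a ratio as high as Lcn2, the lowest of the 8. The share of higher genes among all genes past 1.5-fold was 56.4%, and it was 70.8% after scaling to the median, 66.9% after quantile normalization, 67.2% with a trend on signal removed, and 77.6% or 74.5% with another background correction (normexp) followed by quantile normalization or by the scaling used here.

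**Figure D1:**
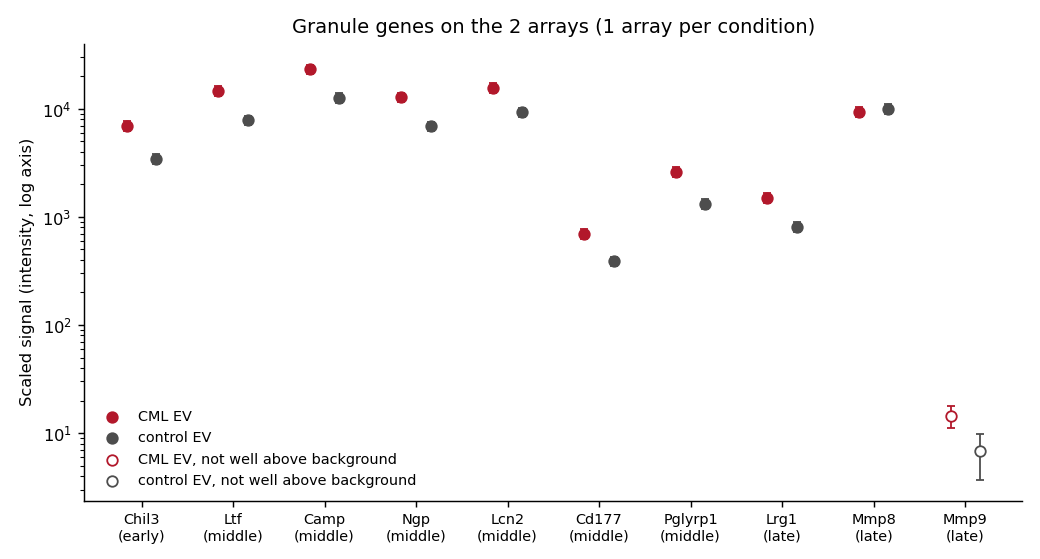
Scaled signal (log axis) of each granule gene with CML EVs (red, left) and control EVs (grey, right), in the order of their stage, with bars for the error of the spot given by the scanner software. For 8 genes the CML EV point lies above the control EV point beyond both bars, for Mmp8 the bars overlap, and Mmp9 (open circles) was not well above background on either array. For the 9 measured genes each bar is 10.0% of the signal, so that any gene past 1.5-fold clears it.

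The members are described from early to late in maturation, an order taken from general knowledge of neutrophil development, in which the place of Lrg1 is the least settled. Chil3 (Ym1), a secreted chitinase-like lectin, is transcribed earliest, in promyelocytes and myelocytes. Its signal was 6988 with CML EVs and 3443 with control EVs, a log2 ratio of 1.02 (2.03-fold). This was the highest ratio of the group, rank 48 among all measured genes and rank 2 among the brighter ones. Chil3 has a close paralog, Chil4, which lies next to it on chromosome 3, and a probe for one may also read the other. The part of Chil4 in the signal of the Chil3 probe was not tested. The Chil4 probe had signals of 41.7 with CML EVs and 21.5 with control EVs.

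Ltf, Camp, Ngp and Lcn2 encode soluble proteins of the secondary granules, and all were higher with CML EVs to a like degree. Lactoferrin (Ltf), which binds iron and withholds it from microbes, had a signal of 14729 with CML EVs and of 7821 with control EVs, 1.88-fold higher. Camp encodes the cathelicidin precursor, from which an antimicrobial peptide is cut after release. It had a signal of 23235 with CML EVs and of 12653 with control EVs, 1.84-fold higher. For Ngp, the neutrophilic granule protein, which is related to the cathelicidins and cystatins, the signals were 12726 with CML EVs and 6914 with control EVs, again 1.84-fold higher. Camp, Ngp and Ltf lie on chromosome 9, and their log2 ratios of 0.88, 0.88 and 0.91 differed among themselves by less than the median SD between repeated spots.

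Lcn2 encodes lipocalin 2 (NGAL), which captures bacterial siderophores and is made by many cell types in inflammation besides neutrophil precursors. It was the only higher member with a second probe. One probe gave 15659.8 with CML EVs and 9251 with control EVs, 1.69-fold higher, and the other gave 2732 with CML EVs and 1563 with control EVs, 1.75-fold higher. The log2 ratios of the 2 probes, 0.76 and 0.81, thus differed by less than the median SD between repeated spots.

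Cd177 encodes a surface glycoprotein that is stored in the secondary granule membrane and in human neutrophils presents proteinase 3. It had a signal of 695.5 with CML EVs and of 389.97 with control EVs, 1.78-fold higher, and its mean signal lay below the median signal of measured genes. Pglyrp1, a peptidoglycan recognition protein of the secondary and tertiary granules that kills bacteria, had signals of 2607 with CML EVs and 1321 with control EVs. Its ratio of 1.97-fold was the second highest of the group, rank 56 among all measured genes. Lrg1, a leucine-rich glycoprotein of neutrophil granules that is also secreted by the liver and endothelium, had signals of 1497 with CML EVs and 810.1 with control EVs, 1.85-fold higher.

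The remaining members are matrix metalloproteinases. Mmp8, the neutrophil collagenase of the secondary granules, had a signal of 9382 with CML EVs and of 10015 with control EVs. Its log2 ratio of -0.09 exceeded the median SD between repeated spots (0.05) and lay within the highest (0.16). For the 4 repeated probes with a mean log2 signal of 12 to 14, the range of Mmp8, the highest SD was 0.09. Mmp8 ranked 10163 of 13412 genes. Its transcript was thus detected in both cultures, without the difference seen in Ltf, Camp and Ngp. The value of Mmp8 rests on 1 probe with 1 spot per array, so no second probe could be set beside it. Mmp9, the gelatinase that gives the tertiary granules their name and is transcribed last, was not well above background on either array. Its 2 probes had signals of 14.5 and 13.8 with CML EVs and of 6.75 and 11.9 with control EVs, where the error given by the scanner software was 23.6% to 45.5% of the signal, so that no fold is given. Mmp9 is the only member that belongs to the tertiary granules alone, and its transcript was not detectable at this signal.

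**Figure D2:**
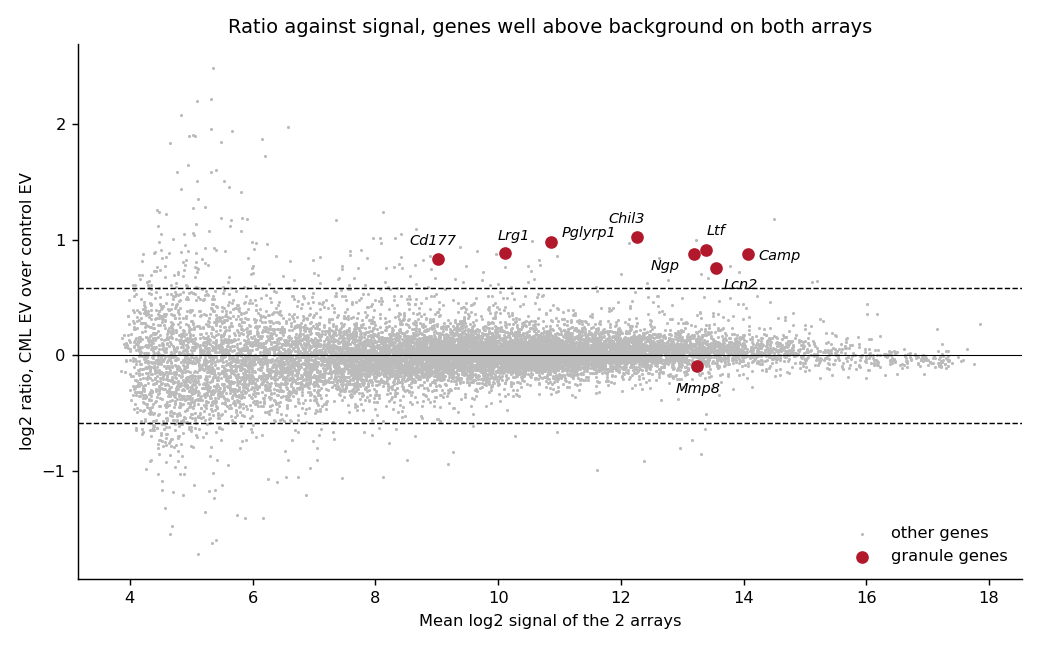
Log2 ratio (CML EV over control EV) against the mean log2 signal for 13412 genes, all well above background on the 2 arrays, with 9 granule genes in red and dashed lines at 1.5-fold. Red points from 0.76 to 1.02 form a band above the cloud across the range of signals, and Mmp8 at -0.09 lies inside the cloud.

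Sorted by stage, the early gene Chil3 had a log2 ratio of 1.02, the 6 middle genes had a median of 0.88 with a range of 0.76 to 0.98, and the late genes Lrg1 and Mmp8 had 0.89 and -0.09. Lrg1 thus lay within the range of the middle genes and Chil3 above it. The log2 ratios of the 9 measured members had an SD of 0.34. Without Mmp8 the SD of the 8 higher members was 0.08, and these 8 were picked by their ratio. For each of them the log2 ratio was above the highest SD between repeated spots, which the 1.5-fold cut that defined them already requires. The scanner software put the error of every spot of the 9 measured members at 10.0% of its signal, the same share throughout.

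Because the higher members shared a like ratio, promoters are shown for the 3 genes on chromosome 9 that were higher (Ltf, Ngp and Camp) and for Mmp8, which lies on the same chromosome and was not. The sequences are the 250 bases before the RefSeq start in GRCm38.p6, 5′ to 3′ on the strand of the gene: Ltf chr9:111019042-111019291 (+), Ngp chr9:110419558-110419807 (+), Camp chr9:109849457-109849706 (-) and Mmp8 chr9:7558179-7558428 (+). The other members lie on chromosomes 2 (Lcn2, Mmp9), 3 (Chil3), 7 (Cd177, Pglyrp1) and 17 (Lrg1). Capitals mark matches to a C/EBP motif (TTGCNNAA) or to a PU.1/ETS motif (GAGGAA), searched on both strands.
Ltf: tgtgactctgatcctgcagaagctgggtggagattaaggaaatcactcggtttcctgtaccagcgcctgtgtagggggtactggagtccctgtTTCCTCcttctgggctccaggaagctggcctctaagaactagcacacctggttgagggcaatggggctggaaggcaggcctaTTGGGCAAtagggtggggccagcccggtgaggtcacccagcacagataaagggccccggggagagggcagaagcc
Ngp: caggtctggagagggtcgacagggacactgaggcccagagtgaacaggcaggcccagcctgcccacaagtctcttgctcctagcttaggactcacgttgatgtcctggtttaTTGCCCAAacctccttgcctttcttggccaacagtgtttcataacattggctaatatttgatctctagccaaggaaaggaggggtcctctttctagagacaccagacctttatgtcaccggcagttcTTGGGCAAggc
Camp: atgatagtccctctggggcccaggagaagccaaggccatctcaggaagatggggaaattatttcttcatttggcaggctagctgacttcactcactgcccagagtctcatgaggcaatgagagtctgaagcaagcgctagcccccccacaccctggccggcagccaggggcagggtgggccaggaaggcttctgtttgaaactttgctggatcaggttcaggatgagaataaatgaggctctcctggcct
Mmp8: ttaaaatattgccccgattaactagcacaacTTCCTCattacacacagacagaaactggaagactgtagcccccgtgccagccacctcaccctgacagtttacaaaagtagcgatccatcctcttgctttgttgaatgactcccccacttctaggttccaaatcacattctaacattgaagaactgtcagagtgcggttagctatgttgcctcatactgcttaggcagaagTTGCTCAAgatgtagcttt

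The C/EBP letters occurred in 4 of the 9 member promoters in the RefSeq table (Ltf, Ngp, Lcn2 and Mmp8), against 9.55% of 27025 promoters of the same length. In Ltf the match began 75 bases before the start and in Ngp 138 and 11 bases before it, while in Mmp8 it began 19 bases before the start, although that gene was not higher. Camp, Chil3, Lrg1, Cd177 and Pglyrp1 were higher and had no match to these letters. The PU.1/ETS letters occurred in 5 of 9 (Ltf, Lcn2, Cd177, Pglyrp1 and Mmp8), against 23.1% of promoters. A TATA box (TATAAA, both strands) was found in Cd177 only, against 12.97% of promoters. No match overlapped another. A match of letters is a description and shows no binding, and neither motif separated the higher members from Mmp8.

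Of the 26 measured transcription factors of granulocyte development, 2 were at least 1.5-fold higher and none lower, with a median log2 ratio of 0.02 and 15 above and 11 below 0. The 2 were Cebpe and Gfi1. Cebpe, which encodes C/EBPε, had signals of 13579.7 with CML EVs and 6778 with control EVs, 2.003-fold higher. Gfi1, a repressor needed for granulocyte maturation, had signals of 6311 with CML EVs and 3219 with control EVs, 1.96-fold higher. Next came Cebpd and Klf5 at 1.38-fold each, and the lowest were Egr1, Per3 and Myc at log2 ratios of -0.39, -0.28 and -0.25. A second probe of Myc was at -0.08. The list median was below 0 with normexp, at -0.02 with quantile normalization and -0.0041 with the scaling used here.

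The neighbours of the granule genes did not share their ratio in general. The nearest measured genes on the chromosome, 2 on each side of each of the 10 members, numbered 40 and had a median log2 ratio of 0.02. Of these, 3 were at least 1.5-fold higher and 1 lower, beside 1.52% and 1.18% of all measured genes. The share of higher genes was thus larger among the neighbours. The higher ones were Chil4, Plin5 and Ceacam10. Chil4, next to Chil3, was 1.94-fold higher, and its probe may also read Chil3. The lipid droplet gene Plin5, next to Lrg1, had signals of 32.4 with CML EVs and 14.9 with control EVs. The lowest signal well above background was 12.9 with control EVs. Ceacam10, next to Cd177, had signals of 113.9 with CML EVs and 70.7 with control EVs (1.61-fold). The lower one was Tdgf1 beside Ltf, 1.58-fold lower with signals of 178.4 with CML EVs and 282.6 with control EVs. Ngp lies between Camp and Ltf on chromosome 9, and the other 19 measured genes between them had a median of -0.04, none at least 1.5-fold higher and 2 lower, Tdgf1 and Pth1r (signals of 17.5 with CML EVs and 26.9 with control EVs). The metalloproteinase genes beside Mmp8, Mmp13 and Mmp12, had log2 ratios of -0.12 and -0.06, beside -0.09 for Mmp8.

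**Figure D3:**
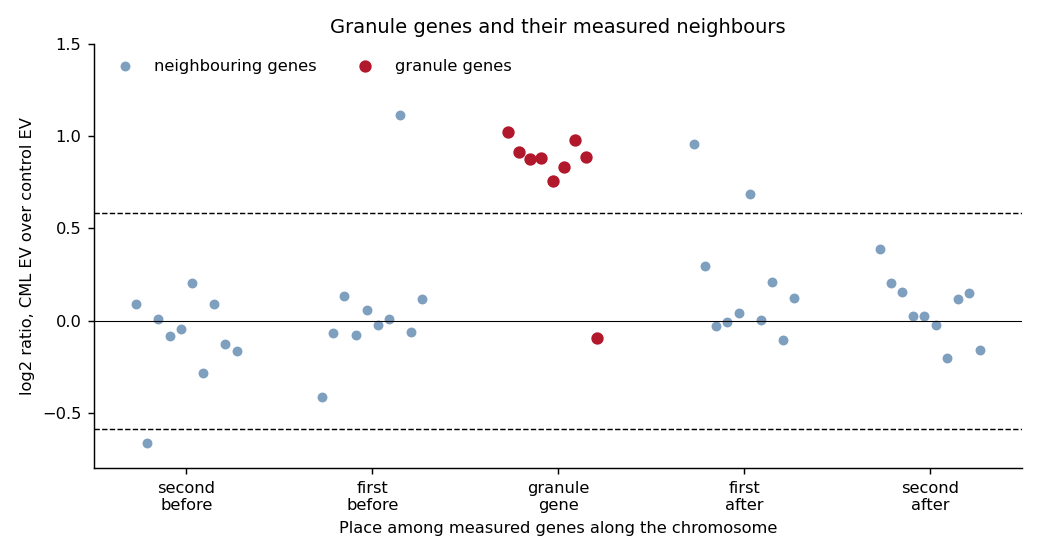
Log2 ratio (CML EV over control EV) of the 9 measured granule genes (red, centre) and of the 40 measured genes nearest to the 10 members along the chromosome (blue), with dashed lines at 1.5-fold. Of the red points, 8 lie between 0.76 and 1.02, where Chil4 is the only neighbour, with Plin5 above them, and the neighbour median is 0.02.

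Other granule genes were shifted in the same direction, but less evenly. Among 37 measured genes of other granules and late neutrophils, 29 lay above 0 and 8 below, 9 were at least 1.5-fold higher and none lower, and the median was 0.39 (1.31-fold). The highest were Ceacam1, an adhesion molecule (1.80-fold), the acute phase gene Orm2 (1.72-fold, at signals of 39.3 with CML EVs and 22.8 with control EVs), the chitinase-like gene Chil1 (1.71-fold) and the stefin Stfa1 (1.70-fold), whose near-identical relatives the array may not separate. The lowest were Itgam, Adam8 and Padi4, at -0.20, -0.18 and -0.14. Second probes of Adam8 and Padi4 were at -0.06 and -0.02. Itgam, the α chain of Mac-1, had a second probe at 0.43, so that its direction is not settled, and with that probe 30 genes of the list lay above 0 and 7 below. Of the 19 measured primary granule and promyelocyte genes, 18 lay above 0, 6 were at least 1.5-fold higher and none lower, with a median of 0.28 (1.21-fold). These spread widely, with neutrophil elastase (Elane) at 2.27-fold, the ficolin Fcnb at 2.14-fold, Ms4a3 at 1.71-fold and the serine protease Prss57 at 1.68-fold, but Igfbp4, the lysosomal enzyme Gusb and lysozyme (Lyz2) at log2 ratios of 0.06, 0.03 and -0.03. With normexp and the scaling used here, the median was 0.28 for the other granule and late neutrophil genes and 0.31 for the primary granule genes. The 17 measured genes of mature blood neutrophils had a median of 0.08 with 9 above and 8 below 0, none 1.5-fold higher, and 1 lower, Ptgs2, at signals of 25.4 with CML EVs and 39.9 with control EVs. Il1b was lower as well (-0.30, with a second probe at -0.04), and Mxd1 and Il1r2 were highest at 1.34-fold and 1.30-fold.

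The genes whose products inhibit or bind the granule proteins showed no common shift: of 18 measured, 8 lay above and 10 below 0, with a median of -0.0051 that turned positive under 8 of 12 alternatives. With the other probe of Itgam the split was 9 above and 9 below 0, with a median of 0.02. Prtn3 (proteinase 3), which CD177 presents in human neutrophils, was 1.59-fold higher, and Stfa2, a cysteine protease inhibitor, was 1.51-fold higher. None of the 10 members is a cysteine protease. Some genes are counted on more than one list. Prtn3 also stands with the primary granule genes. Stfa2, Itgam, Itgb2, Fpr1, Fpr2 and Trem1 also stand with the other granule and late neutrophil genes. Fpr1, Retnlg and Clec4d stand both there and with the genes of mature blood neutrophils. Itgb2, the β chain of Mac-1, was 1.23-fold and the metalloproteinase inhibitor Timp2 1.10-fold higher, and the lowest with a settled direction were Timp3 (-0.27) and the lipocalin receptor Slc22a17 (-0.17). Lcn2, Lrg1 and Chil3 are also induced in inflammation outside neutrophil precursors. Acute phase and inflammatory genes that are not granule genes numbered 17 measured, with 12 above and 5 below 0 and a median of 0.20. Of these, complement C3 was 1.53-fold and Saa3 1.41-fold higher, and Socs3 and Il6 were lowest at -0.13 and -0.11. A second probe of Il6 was at 0.04, so that its direction is not settled.

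**Figure D4:**
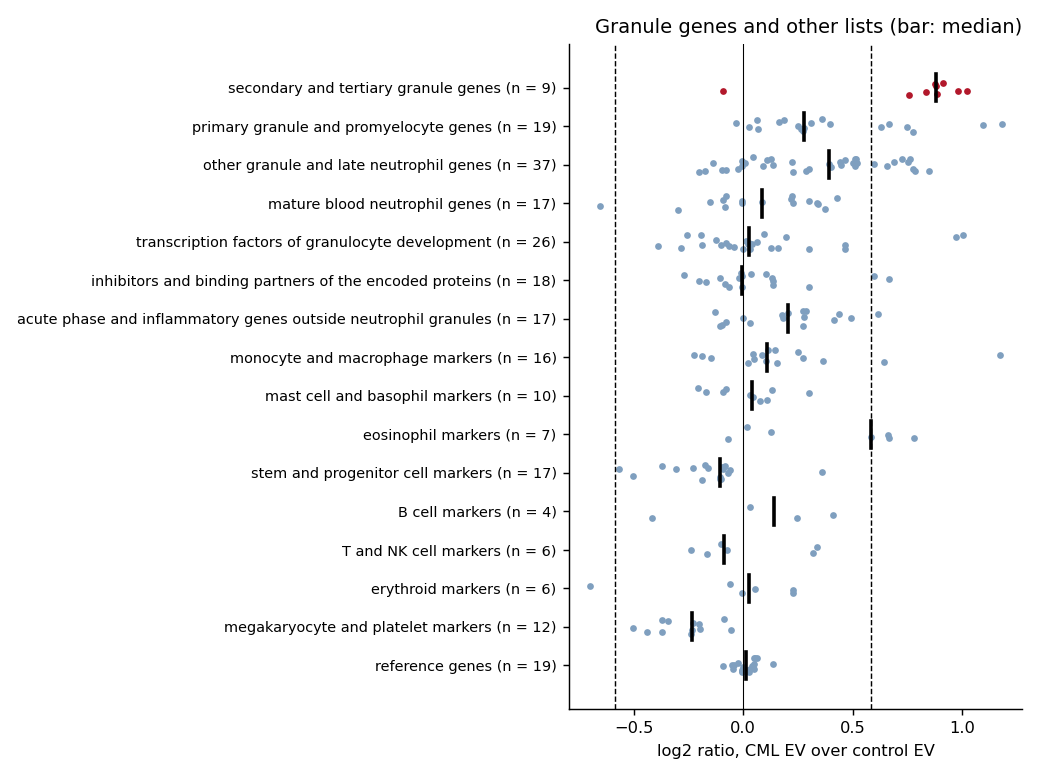
Log2 ratio (CML EV over control EV) of each measured gene of 16 lists, with black bars for the list medians and dashed lines at 1.5-fold. The granule genes (red) have a median of 0.88, eosinophil markers 0.58, other granule and late neutrophil genes 0.39, and stem and progenitor markers -0.11.

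Markers of other blood cells were measured beside the granule genes, and each sum given here is over every gene of a list found on the array, dim ones included. The 20 stem and progenitor markers summed to 37483 with CML EVs and 41273 with control EVs. Of the 17 that were well above background on both arrays, 16 lay below 0, with Ly6a as the exception. The 10 eosinophil markers summed to 12795 with CML EVs and 8623 with control EVs, and 3 of 7 measured were at least 1.5-fold higher (Epx, Prg3 and Ear6). The lowest measured ones, Ear1 and Ear2, had log2 ratios of -0.07 and 0.02 and so were not shifted in the same way. The receptors Ccr3 and Il5ra were not well above background on either array. The 20 monocyte and macrophage markers summed to 87956 with CML EVs and 66959.5 with control EVs (1.31-fold), and without Ly6c2 to 40935 with CML EVs and 36879 with control EVs (1.11-fold). Their median log2 ratio was 0.11 over 16 measured genes and 0.057 with normexp and the scaling used here. Of the 16, 13 lay above 0 and 2 were at least 1.5-fold higher, Vcam1 at 2.25-fold, with signals of 247.0 with CML EVs and 109.5 with control EVs, and Ly6c2 at 1.56-fold. The 11 mast cell and basophil markers summed to 52850.5 with CML EVs and 50204 with control EVs, the 13 T and NK cell markers to 2031 with CML EVs and 2166 with control EVs, and the 10 B cell markers to 1111 with CML EVs and 1034 with control EVs. The 10 erythroid markers summed to 8920.3 with CML EVs and 8774 with control EVs, and the globin Hbb-bt among them was 1.62-fold lower. None of these 4 lists held a measured gene 1.5-fold higher. All 12 megakaryocyte and platelet markers lay below 0 (median -0.24), with sums of 82921 with CML EVs and 92272 with control EVs. The B cell genes Cd79a and Ms4a1 were not well above background on either array. The 19 measured reference genes had a median of 0.01 (-0.0071 with the mean of all probes) and lay between -0.09 and 0.14. Scaling to the median raised every log2 ratio by 0.07, so that counts above and below 0 hold for the scaling used here. The part of these cell types in the values of the granule genes was not tested.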

How the data were processed

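LKS+ cells given CML EVs or control EVs were measured on 1 Agilent mouse array each. The deposited scanner files hold the background-subtracted intensity of each spot (Agilent Feature Extraction 12.0.3.1, per the submitters' processing notes) with flags for outliers and spots well above background. The deposited value table is that intensity multiplied by 1 factor per array (largest relative deviation 5.0e-10).

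Control and outlier spots (88 with CML EVs, 95 with control EVs) were left out, arrays were scaled to a trimmed mean of 2500, and log2 values of repeated spots were averaged. Probes were named through RefSeq accessions (GRCm38.p6): 32994 of the probes had a symbol and 23610 had none. The files refer to another build, so coordinates and promoters come from RefSeq. Of several probes for a gene, that brightest with CML EVs was used. Folds and counts used genes well above background on both arrays. Of 273 list genes 263 were found.

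Members and lists were chosen with earlier results of these data known. All members were named. Up to 4 highest and 3 lowest genes were named from the lists of primary, other late, factor and partner genes, up to 2 and 2 from the others, and neighbours past 1.5-fold. Ly6a, Kit, Cd4, Cd8a, Mmp12, Mmp13, Ccr3, Il5ra, Cd79a, Ms4a1, Pth1r, Ear6 and Hbb-bt were added after their values were seen. Fpr1, Fpr2, Trem1, Retnlg and Clec4d were named only as genes shared between lists. The gene-level step was tested on simulated data. Alternatives covered scaling, background correction (limma 3.58.1), probe choice, filters, threshold, outlier flags and a loess trend (statsmodels 0.14.6, span 0.3). Python 3.11.15 and R 4.3.3 were used. The number of arrays limits the precision.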

Additional observations from a re-analysis of the deposited data

How the results depend on the processing

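Under 15 alternatives the median log2 ratio of the granule genes lay between 0.78 and 0.95. It was 0.95 after scaling to the median, which raised all genes by 0.07, and 0.78 as a mean in place of the median, and it moved by less than the spread between repeated spots under the other 13. With a threshold of 2-fold only 1 gene, Chil3, counted as higher in place of 8, and under the other 16 alternatives the count was 7 to 9. The 7 were out of 8 genes with both signals above the median. The 9 were out of 10 genes without a filter on dim probes, which added Mmp9, not well above background on either array. The count of lower genes was 0 under all 17. Each of the 8 higher genes kept its direction under 12 alternatives, and the lowest value was that of Lcn2 with quantile normalization (0.71). Mmp8 lay between -0.16 and -0.02. With normexp the genes at least 1.5-fold higher numbered 83 (quantile) or 79 (main scaling), in place of 204, and those lower 24 or 27, in place of 158. Counting all probes by their mean gave 266 higher and 235 lower. Leaving out saturated spots was not run, since there were none. No paired analysis was possible because there was only 1 array for CML EVs and 1 for control EVs. Dim probes limit Mmp9, for which only a level not well above background can be given.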

Other observations

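Genes outside the lists accompanied the granule genes among the brighter genes. Of the 39 genes at least 1.5-fold higher with a mean signal above the median, 18 were on none of the lists, and those given here were chosen after their values were seen. Pram1, an adaptor protein of myeloid cells, had signals of 2123 with CML EVs and 1071 with control EVs (1.98-fold). Hsd11b1, which regenerates active glucocorticoid, was 1.87-fold higher, and Clec12a, an inhibitory C-type lectin of granulocytes and monocytes, was 1.79-fold higher with signals of 8449 with CML EVs and 4712 with control EVs. Anxa3, an annexin abundant in neutrophils, was 1.63-fold higher, and Ffar2, a receptor for short-chain fatty acids, was 1.65-fold higher. Alas1, the enzyme that starts heme synthesis outside red cells, had signals of 20005.5 with CML EVs and 12149 with control EVs (1.65-fold). Ly6c1, which is nearly identical to Ly6c2 on the monocyte list, was 1.55-fold higher beside 1.56-fold for Ly6c2. No replicate stands behind any of these ratios.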
